A study of Mus musculus with 3 samples.

Results

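The haemoglobin genes and the genes that mark red-cell precursors were examined in RNA of embryonic mouse hearts. They comprised the alpha-like globins Hba-x and Hba-a1, the beta-like globins Hbb-y, Hbb-bh1 and Hbb-b1, the haem enzyme gene Alas2, the membrane anion exchanger gene Slc4a1, and the transcription factor genes Klf1 and Gata1. All gene probes carrying one of these 9 names were taken, which gave 13 of the 41174 gene probes on the array. The genes were chosen by the log2 ratios of Cy5 over Cy3 measured on these same arrays, on which an erythroid list had been lower in Cy5 in earlier work. Their ratios are therefore a description, and no test of them is offered as support.

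Haemoglobin is a tetramer of alpha-like and beta-like chains, each of which holds a haem. The earliest red cells, made in the yolk sac, use the embryonic chains encoded by Hba-x, Hbb-y and Hbb-bh1. The red cells that follow, made in the foetal liver, use the adult-type chains encoded by Hba-a1, Hba-a2 and the adult beta genes. In a whole heart the globin transcripts come from blood in the chambers and vessels, and the heart muscle cell itself uses a different globin, myoglobin.

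Each of the 3 arrays compared 1 pool of heart RNA from 2 Lrrc10-/- embryos, labelled with Cy5, with 1 pool from 2 Lrrc10+/+ embryos, labelled with Cy3. All were C57BL/6 hearts at embryonic day 15.5 from crosses of heterozygous parents, and the wild-type hearts were those of littermates. Lrrc10 is a heart muscle gene for a protein with leucine-rich repeats, and the question of the arrays was how its loss alters cardiac transcripts before birth. The dyes were never exchanged, so the genotype label and the dye cannot be told apart. The transcript of Lrrc10 itself went against the labels, being higher in the channel labelled Lrrc10-/- on 3 of 3 arrays (log2 ratio 4.41 ± 0.40, SD, n = 3; limma adjusted p = 0.000386), so every direction given here is that of the dye channel under its label. The wild-type channel carries, beside the embryonic age, an entry naming an adult age. The 4 probes of the embryonic globins Hba-x, Hbb-y and Hbb-bh1 were well above background in Cy3 on all 3 arrays, as they were in Cy5. The 10 cardiomyocyte markers on the list used here were well above background in both channels throughout.

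Between 63.5% and 88.7% of gene probes were well above background in Cy5 and between 68.9% and 93.2% in Cy3. Replicate 1 was scanned and extracted with other scanner and software versions than replicates 2 and 3. With 3 arrays, precision is limited throughout. In whole hearts, fewer red cells and less RNA per cell cannot be told apart.

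The sequences of the globin probes decide what each can measure, so they are shown here as the files give them, 5′ to 3′, with capitals for a stretch shared by overlapping probes of 1 gene.
Hba-x, A_51_P204053: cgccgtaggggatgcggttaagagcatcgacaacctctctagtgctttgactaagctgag
Hbb-y, A_51_P350058: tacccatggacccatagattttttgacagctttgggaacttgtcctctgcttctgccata
Hbb-bh1, A_51_P179672: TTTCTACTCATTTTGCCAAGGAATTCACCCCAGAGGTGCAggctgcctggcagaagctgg
Hbb-bh1, A_52_P305876: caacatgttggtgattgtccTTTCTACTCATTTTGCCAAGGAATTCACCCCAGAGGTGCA
Hba-a1, A_52_P278538: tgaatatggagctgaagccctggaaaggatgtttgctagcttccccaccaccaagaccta
Hbb-b1, A_51_P374468: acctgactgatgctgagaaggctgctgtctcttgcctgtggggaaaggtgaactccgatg
Hbb-b1, A_52_P260346: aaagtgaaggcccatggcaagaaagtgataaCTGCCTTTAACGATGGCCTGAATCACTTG
Hbb-b1, A_51_P374476: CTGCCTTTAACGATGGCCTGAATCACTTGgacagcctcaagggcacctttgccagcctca
The pair for Hbb-bh1 shares 40 bases and the pair shown for Hbb-b1 shares 29, so neither pair is made of independent measurements. The adult alpha genes Hba-a1 and Hba-a2 are nearly identical copies, as are the adult beta genes. The accession the files give for the Hbb-b1 probes belongs to Hbb-bt in RefSeq (GRCm38.p6). Values under the names Hba-a1 and Hbb-b1 may therefore hold signal of their sister genes.

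All 13 probes passed the filter on dim signals, and none was called higher or lower in Cy5 by limma at an adjusted p under 0.05. Over all 28326 tested probes 1.39% were called higher and 0.00353% lower. At an unadjusted p under 0.05, 1 member probe, that of Alas2, lay lower and none higher, where 4.26% of all tested probes lay lower and 9.06% higher. Of the 13 probes, 4 were saturated in both channels on at least 1 array and have no fold. Of the other 9, those of Alas2 and Klf1 were below 0 on every array, 1 of the pair for Hbb-bh1 was above 0 on every array, and 6 had mixed signs. Over all tested probes with a ratio on each array, saturated probes included, 17.6% were below 0 and 19.3% above 0 on all 3 arrays.

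**Figure D1:**
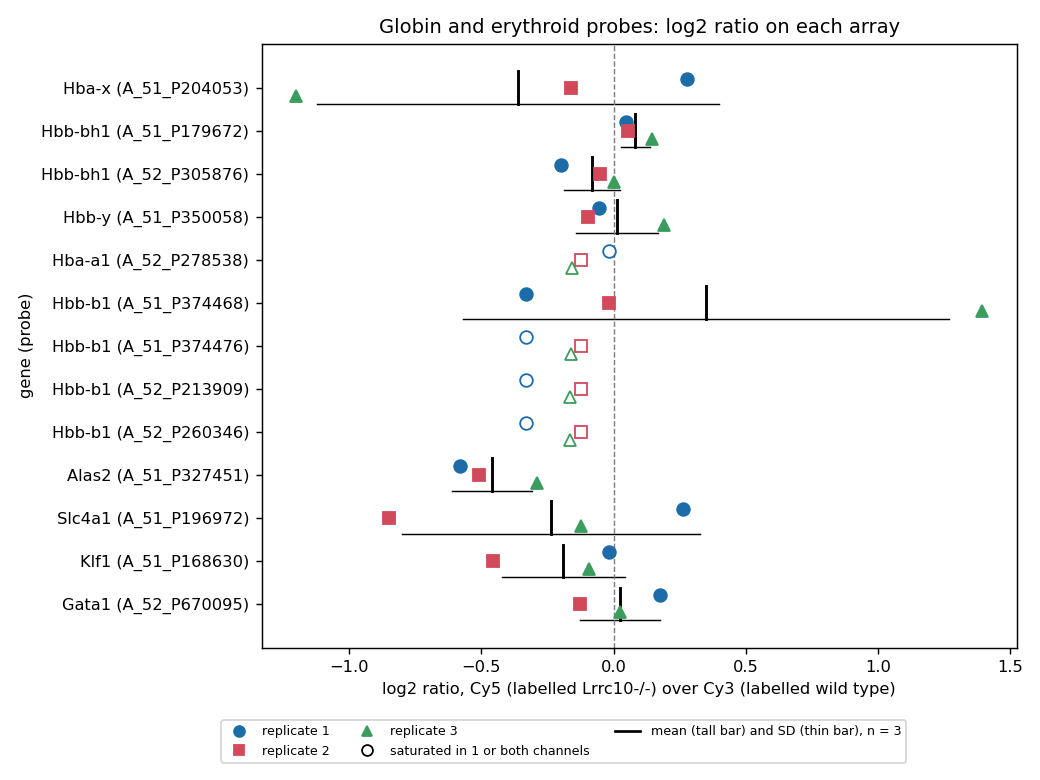
Log2 ratio of Cy5 (labelled Lrrc10-/-) over Cy3 (labelled wild type) for each of the 13 globin and erythroid probes, with 1 symbol per array, open where a channel was saturated, and the mean and SD over 3 arrays as bars for the 9 probes never saturated in both channels. The Alas2 values lie between -0.58 and -0.29, whereas Hba-x and the unsaturated Hbb-b1 probe have 1 array, replicate 3, far from the other two and in opposite directions.

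The embryonic beta-like globins were close to equal in the channels. Hbb-y, the embryonic epsilon-type chain, is read by 1 probe (chr7:111001412-111001471, mm9, minus strand). On replicates 1, 2 and 3 its processed signal was 8513, 9398 and 17398 in Cy5, against 9561, 10827 and 17058 in Cy3. The log2 ratio was -0.055, -0.096 and 0.19 (mean 0.013 ± 0.16, SD, n = 3). The channels thus changed order between arrays, and the mean lay well inside the spread.

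Hbb-bh1 encodes a second embryonic beta-like chain, abundant in the first wave of red cells. Its probe A_51_P179672 (chr7:110990307-110990366, mm9) gave processed signals of 667, 783 and 1415 in Cy5 and 799, 847 and 1334 in Cy3. The log2 ratio was 0.047, 0.055 and 0.15 (mean 0.082 ± 0.055, SD, n = 3). The other probe, A_52_P305876 (chr7:110990327-110990386), gave -0.20, -0.050 and 0.0028 (mean -0.082 ± 0.10). The pair, which shares most of its bases, differed by 0.25, 0.10 and 0.14 in log2 ratio within the arrays. Their means had opposite signs and lay 0.16 ± 0.073 (SD, n = 3) apart, further than either lay from 0. From processed signals the pair differed by -0.087, -0.072 and 0.047, with means of -0.096 and -0.059, so neither the constant direction nor the opposite signs held there.

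Hba-x, the embryonic alpha-like zeta chain, stood apart on 1 array. Its probe (chr11:32177668-32177727, mm9, plus strand) had processed signals of 1340, 1211 and 1477 in Cy5 and 1318, 1533 and 3990 in Cy3. The Cy3 signal of replicate 3 was 2.70-fold that of Cy5. The log2 ratio was 0.28, -0.16 and -1.20 (mean -0.36 ± 0.76, SD, n = 3). The arrays were then brought to a common distribution of mean intensity over the channels, which leaves each log2 ratio unchanged. On that log2 scale replicate 3 held the highest Cy3 value of Hba-x, 11.43, and the lowest Cy5 value, 10.22 against 10.83 and 10.54. Both values are set by that mean intensity and the ratio, so they are not separate readings of the channels. By processed signal the Cy5 value of replicate 3 was the highest, 1477. Without replicate 3 the mean log2 ratio was 0.058.

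The adult-type globins filled the scanner's range. Hba-a1, the adult alpha chain, is read by 1 probe whose match spans a junction (chr11:32183775-32183956, mm9), and its Cy5 signal was saturated on all 3 arrays and its Cy3 signal on replicates 2 and 3. Of the 4 probes of Hbb-b1, the adult beta chain, 3 were saturated in both channels on all 3 arrays. Those 3 returned ratios equal to 2 decimals, -0.33, -0.12 and -0.16 on replicates 1, 2 and 3, with both channels at the limit, so these values measure no difference between the pools. The neighbouring locus Hba-a2 was saturated in both channels on 2 of 3 arrays.

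The Hbb-b1 probe A_51_P374468 (chr7:110962317-110962376, mm9) was not counted as saturated and is the usable reading of an adult-type beta chain. Its processed signal was 26843, 31989 and 70192 in Cy5 and 28284, 28714 and 27827 in Cy3. The Cy5 signal of replicate 3 was 2.52-fold that of Cy3. It lay among the Cy5 signals of the saturated Hbb-b1 probes on that array, between 65318.5 and 72759, so that fold may not be exact. The log2 ratio was -0.33, -0.018 and 1.40 (mean 0.35 ± 0.92, SD, n = 3). On the log2 scale of common mean intensity, replicate 3 held the highest Cy5 value, 15.06 against 14.63 and 14.56. It also held the lowest Cy3 value, 13.67 against 14.96 and 14.58. As for Hba-x, these values are set by the mean intensity and the ratio. Without replicate 3 the mean log2 ratio was -0.17, so the sign of the mean rests on that array.

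**Figure D2:**
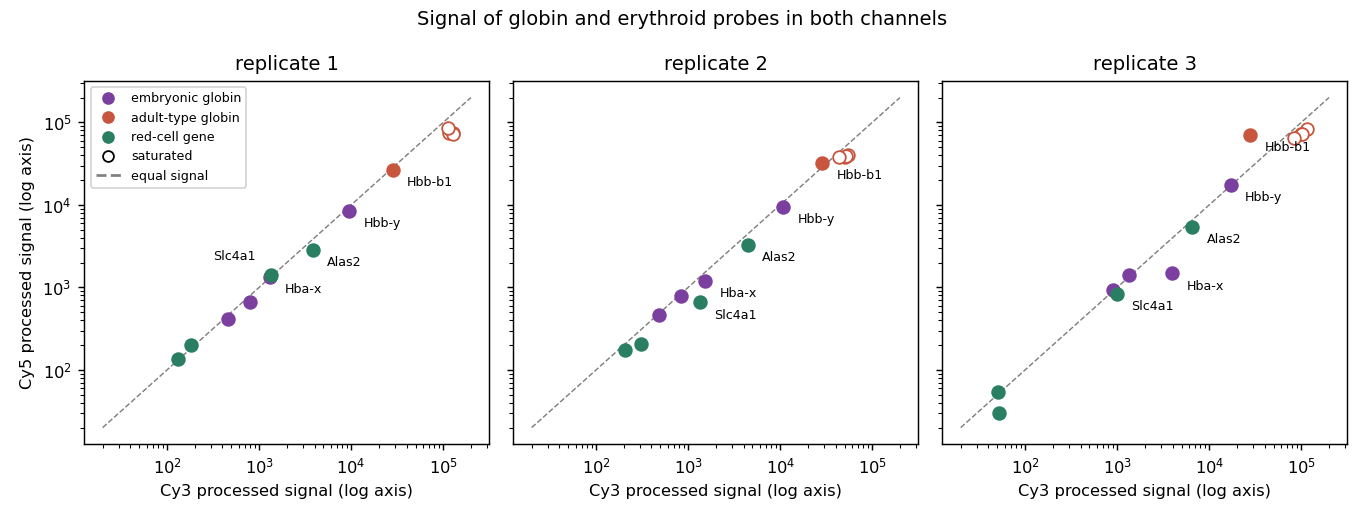
Processed signal of each globin and erythroid probe in Cy5 against Cy3 on logarithmic axes, in 1 panel per array, with embryonic globins, adult-type globins and red-cell genes in separate colours, open symbols where a channel was saturated, and a dashed line of equal signal. On replicate 3 Hba-x lies below the line (1477 in Cy5 and 3990 in Cy3) and the unsaturated Hbb-b1 probe above it (70192 and 27827), and on replicate 2 Slc4a1 lies below it (660 and 1332).

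Embryonic and adult-type globins were set against each other as ratios, since the levels of different probes cannot be compared. The mean log2 ratio of the embryonic probes was 0.018, -0.063 and -0.22 on replicates 1, 2 and 3. That of the adult-type probes not saturated in both channels was -0.17, -0.018 and 1.40. The value of replicate 1 includes the Hba-a1 probe, saturated there in Cy5 alone, and so is not an exact difference. The embryonic minus the adult-type log2 ratio was 0.19, -0.045 and -1.61, and averaged -0.49 ± 0.98 (SD, n = 3; exact two-sided sign-flip permutation p = 0.75, where 3 arrays can give no p below 0.25). With the unsaturated Hbb-b1 probe alone as the adult-type reading it was 0.35, -0.045 and -1.61, and averaged -0.44 ± 1.04 (SD, n = 3; the same exact permutation test gave p = 0.75). Either way the arrays disagreed in sign and the mean was smaller than its spread. Without replicate 3 the first of these means was 0.073.

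The difference on replicate 3 was not shared by all embryonic chains. Hba-x minus Hbb-y was 0.33, -0.065 and -1.39 in log2 ratio, and Hbb-b1 minus Hbb-y was -0.28, 0.078 and 1.20. With Hbb-y near 0, Hba-x and Hbb-b1 lay on either side of it on replicate 3, and Hba-x minus Hbb-b1 reached -2.60 there, against 0.61 and -0.14 on replicates 1 and 2. Hbb-y and both Hbb-bh1 probes lay between 0.0028 and 0.19 on that array.

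Alas2 encodes the red-cell form of 5-aminolevulinate synthase, which makes the first committed step of haem synthesis in erythroid cells. Its values were below 0 on every array with an SD of 0.15, where the median SD of all tested probes was 0.20. Its probe (chrX:147004993-147005052, mm9) gave processed signals of 2836, 3300 and 5410 in Cy5 and 3829, 4460 and 6516 in Cy3. Cy5 was the dimmer channel on 3 of 3 arrays, with log2 ratios of -0.58, -0.51 and -0.29 (mean -0.46 ± 0.15, SD, n = 3). The unadjusted limma p was 0.00636 and the adjusted p 0.174, so the probe was not called. Without replicate 3 its log2 ratio was -0.54 with an adjusted p of 0.0240 by limma, in a fit that called 0.839% of 35397 probes lower.

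Slc4a1, which encodes the band 3 anion exchanger of the red-cell membrane, was low in Cy5 on 1 array. Its probe (chr11:102210256-102210315, mm9) gave 1422, 660 and 834 in Cy5 and 1336, 1332 and 995 in Cy3. The log2 ratio was 0.26, -0.85 and -0.12 (mean -0.24 ± 0.57, SD, n = 3), and on replicate 2 the Cy3 signal was 2.02-fold that of Cy5. Without replicate 2 the mean was 0.069.

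Klf1, the erythroid Krüppel-like factor that acts at adult beta-globin promoters, was dim. Its probe (chr8:87428881-87428940, mm9) gave 137, 208 and 30.3 in Cy5 and 131, 307 and 52.6 in Cy3, and Cy5 was not well above background on replicate 3. The log2 ratio was -0.018, -0.46 and -0.094 (mean -0.19 ± 0.23, SD, n = 3), below 0 on each array but within the spread, and without replicate 2 the mean was -0.056. On replicate 1 it was 0.069 from processed signals and 0.13 with median centring, so the constant sign did not hold there. Gata1, the zinc finger factor required for red-cell and platelet lineages, was read by 10 spots of 1 probe on each array (chrX:7536849-7536908, mm9). Its processed signal was 200, 172 and 53.7 in Cy5 and 181, 208 and 50.6 in Cy3. That was about as dim as Klf1, though well above background in both channels on every array. Its mean log2 ratio over spots was 0.18, -0.13 and 0.026 (mean 0.024 ± 0.15). Its spots on 1 array had SDs of 0.135, 0.20 and 0.067, beside 0.15 between arrays.

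Over the 8 member genes with a probe not saturated in both channels, the median log2 ratio was 0.014, -0.14 and -0.034 on replicates 1, 2 and 3. The 3 array medians had an SD of 0.082. The median of the genes' means was -0.088, beside 0.013 for all tested probes. By array, 5, 8 and 4 of the 9 usable member probes lay below 0, where 51.4%, 44.2% and 50.9% of all tested probes did. Replicate 2 was the array on which most members lay low, and Hbb-bh1 was the only member gene above 0 there by the probe that represents it. Among tested genes outside the lists, those whose 3 log2 ratios came nearest to the members' median profile were Zdhhc18 (Euclidean distance 0.0153), Kcnq1ot1 (0.0191), Usp48 (0.0207), Egfr (0.0214) and Ndor1 (0.0298). With 3 points near 0 this is a likeness of flat profiles.

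The wider erythroid programme was followed through 6 lists with 74 tested genes. None was called higher or lower, and 4 lay higher and 4 lower at an unadjusted limma p under 0.05, where 9.06% and 4.26% of all tested probes did. The list counts below 0 stand beside a median log2 ratio of 0.013 for all tested probes. Of those probes 51.4%, 44.2% and 50.9% lay below 0 on replicates 1, 2 and 3. Of the 13 haem-synthesis genes, 7 had a mean below 0 and the list median was -0.014. Slc25a37, the mitochondrial iron importer of red-cell precursors, had the lowest mean of that list, with log2 ratios of -0.46, -0.38 and -0.94 (mean -0.59, adjusted p = 0.146 by limma) for its brightest probe. Its other tested probes had means of 0.20 and -0.035, so the probes of this gene disagreed. Urod, which decarboxylates uroporphyrinogen, had log2 ratios of -0.65, -0.53 and 0.075 (mean -0.37). Tmem14c, a porphyrin carrier of the mitochondrial membrane, had 0.61, 0.32 and 1.26 (mean 0.73).

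Of 9 tested genes for iron and haem handling, 7 of the 8 not saturated had a mean below 0, with a median of -0.11. By array 3, 4 and 6 of the 8 lay below 0, and without replicate 3 the median was -0.022. The haem exporter gene Flvcr1 had a mean of -0.25, which was -0.034 without replicate 3. The ferritin light chain gene Ftl1 had a mean of -0.24. The haem-degrading oxygenase gene Hmox1 had 0.27, or 0.13 without replicate 3. Of 21 red-cell membrane and skeleton genes 18 were tested, 11 of them below 0, with a median of -0.084. Kel, a blood-group membrane protein gene, had log2 ratios of 0.12, -1.06 and -0.17, and its mean of -0.37 was -0.022 without replicate 2. The beta-spectrin gene Sptb had a mean of -0.29 at its brightest probe and -0.17 and 0.024 at the others tested. The water channel gene Aqp1 had log2 ratios of 0.29, -0.26 and 1.36, and its mean of 0.46 was 0.010 without replicate 3.

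Among the genes of red-cell enzymes and maturation, 13 were tested and the median over 12 was 0.13 (0.039 without replicate 3), with 3 means below 0. Hemgn, a nuclear protein of blood progenitors, had log2 ratios of -0.11, -1.68 and -0.078, and its mean of -0.62 was -0.095 without replicate 2. On replicate 2 its Cy5 signal was not well above background, so the value of that array is not an exact difference. The nuclear transport receptor gene Xpo7 had a mean of -0.33 and Trim10, a ubiquitin ligase gene of terminal erythroid cells, 0.29. Of 18 erythroid regulators, 8 lay below 0, with a median of 0.0056. The erythropoietin receptor gene Epor had a mean of -0.34. Klf3, a repressor of the same family as Klf1, had -0.35, which was -0.064 without replicate 3. Runx1, which acts where blood stem cells arise, had log2 ratios of 0.88, 0.25 and 1.93 (mean 1.02). The theta-globin loci Hbq1a and Hbq1b had means of -0.059 and 0.15, and for Hbq1b the arrays gave 0.26, 0.33 and -0.13. Without replicate 3, Urod (-0.59), Hemgn (-0.90) and Runx1 (0.57) passed limma's threshold, with adjusted p of 0.0132, 0.00774 and 0.0302, in a fit that called 4.77% of probes higher and 0.839% lower. Of these the Hemgn value includes the Cy5 signal of replicate 2 that was not well above background. Other Hemgn probes, which did not pass the filter on dim signals, had log2 ratios of 0.27 and -0.23 on replicate 2.

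The globins of other cell types had means above 0, and none was called. Myoglobin, Mb, the oxygen store of heart muscle, had log2 ratios of 0.58, -0.032 and 0.50 (mean 0.35). Its processed Cy5 signals on replicates 1, 2 and 3 were 74836, 39586 and 79914. Those of Myl2, saturated in both channels on all 3 arrays, were 73600, 37838 and 68825. The Mb ratios may therefore not be exact differences. Cygb, the globin of fibroblasts, had 0.39, 0.37 and 0.30 (mean 0.36). Ngb, the neuronal globin, had 0.96, -0.074 and 1.33 (mean 0.74).

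Markers of liver cells were low on the array on which Slc4a1, Kel and Hemgn were low. Of 10 hepatocyte genes 9 had a probe and 7 were tested, and all 7 lay below 0 on replicate 2, with a median log2 ratio of -1.91, against 0.56 and 0.078 on replicates 1 and 3. Afp, the foetal serum protein gene, had log2 ratios of 0.82, -5.15 and 0.77, and Alb, albumin, had 0.81, -2.74 and 0.17. The summed processed signal of the list was 26967, 3746 and 4543 in Cy5 and 16301, 31196 and 3333 in Cy3, and between 7 and 9 of the 9 genes were well above background in each channel. Macrophage genes had a median of -0.37 on replicate 2 and -0.047 and 0.013 on the others, and megakaryocyte genes had 0.013 on replicate 2 and 0.18 and 0.15 on the others. The part of liver-derived RNA in the low values of replicate 2 was not tested.

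**Figure D3:**
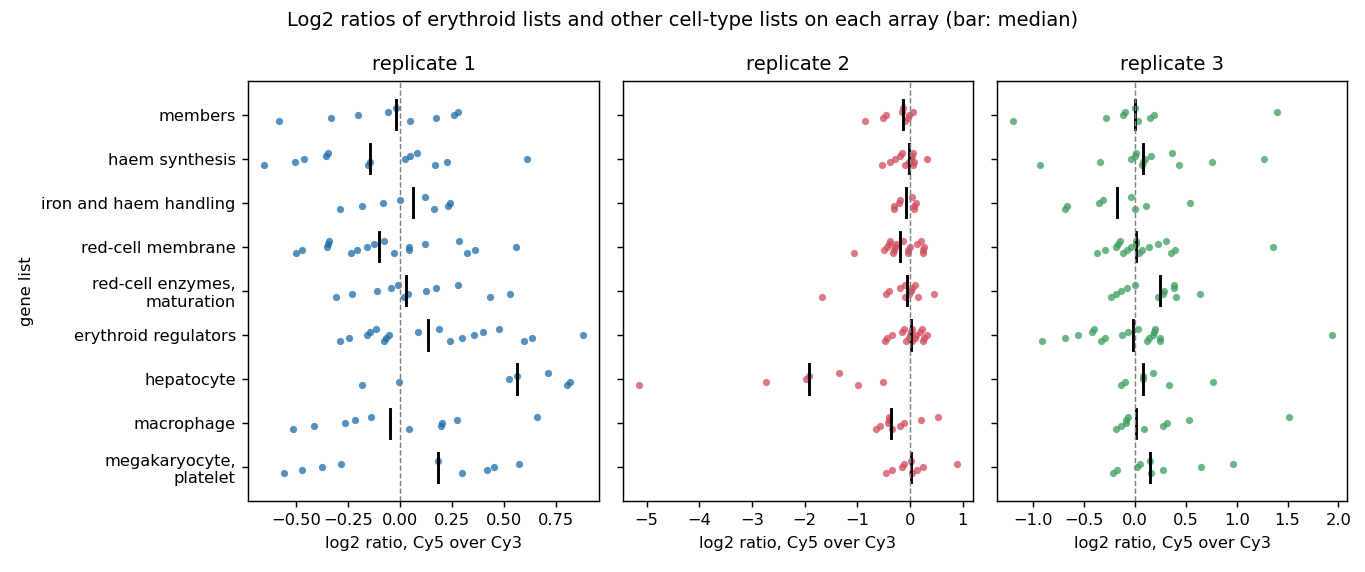
Log2 ratio of Cy5 over Cy3 for the 9 member probes not saturated in both channels and for the genes of 5 erythroid lists and 3 lists of other cell types, in 1 panel per array with its own horizontal range, a point per probe or gene and a bar at the median. The array medians of the 5 erythroid lists lie between -0.20 (red-cell membrane, replicate 2) and 0.25 (red-cell enzymes and maturation, replicate 3). The 7 hepatocyte genes all lie below 0 on replicate 2, down to -5.15 for Afp.

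On replicate 3, where Hba-x and Hbb-b1 stood apart, the hepatocyte list was near 0 and its summed signals, 4543 in Cy5 and 3333 in Cy3, were low in both channels. That array also had the smallest share of probes well above background. What sets Hba-x and Hbb-b1 apart there was not tested.

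RefSeq promoter windows, from 250 bases before to 50 after the start, were found for 7 of the members. Hbb-bh1 and Slc4a1 had no window, and the window taken for Hbb-b1 was that of Hbb-bt. The letters CACCC, the core of the sites that Krüppel-like factors bind, occurred on either strand in 7 of 7, against 57.5% of all 32851 promoters of that length. GATAA, the core of a GATA factor site, occurred in 6 of 7, against 25.4% of all, and the motifs can share a base where they meet on opposite strands. A match of letters is a description and not a bound site.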

How the data were processed

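RNA of pooled mouse hearts was measured on 3 two-colour Agilent arrays. The deposited scanner files hold spot intensities, made per the file headers with Feature Extraction 9.1.3.1 (replicate 1, scanner G2505B, protocol edited for local background) and 10.7.3.1 (replicates 2 and 3, G2505C). The submitters' processing notes name version 9.5. The authors' software had subtracted background from each channel and normalized the dyes to give the processed signal, also an intensity. The deposited log10 ratios, also those of the series table, are log10 of processed Cy5 over Cy3. Probe positions are those of the headers (mm9), and symbols were updated through RefSeq accessions, which matched 27030 probes.

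With limma 3.58.1 (R 4.3.3), log2 ratios were formed from mean signals and median local background (normexp, offset 50) and loess within arrays, with control spots at weight 0. Non-uniform spots were left out and spots of a probe averaged. Probes well above background on every array in at least 1 channel were tested (28326), by lmFit and eBayes against 0, two-sided, with Benjamini-Hochberg at 0.05. A channel counted as saturated if flagged or if its mean signal lay within 1% of the highest. For the genes of the lists only saturation in both channels was counted. Nothing states whether the pools came from separate litters, so p-values measure only the spread between these 3 arrays. The script was tested on simulated data with the same noise level for all probes and larger changes than any member showed. That test does not measure the power to call changes of the size seen here. A gene of a list is represented by its brightest tested probe, and in each list the genes with the 2 lowest and the highest mean were named. The members and lists were chosen with earlier results of these data known. Alternatives covered background, normalization, dim-probe filter, saturated spots, array weights, scanner version as a block, a t-test without moderation and leaving out each array. The t-test was adjusted over all tested probes as in the main fit, and does not repeat the authors' own selection of probes.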

Additional observations from a re-analysis of the deposited data

How the results depend on the processing

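Over all tested probes, 395 were called higher in Cy5 and 1 lower, and these counts depended on the processing. From processed signals, the deposited series table, or a test without moderation, 0 were called in either direction. Without background correction, or with scanner and software version as a block, 1 was called higher and 0 lower. Without a filter on dim probes it was 145 and 0. Median centring called 2 lower and array weights 11 lower. Leaving out an array gave 1 to 1688 higher and 0 to 297 lower, the most without replicate 3.

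No member probe was called except that of Alas2, lower, without replicate 3 (0 to 1 probes when an array was left out). Without that replicate 1 haem-synthesis gene and 1 enzyme and maturation gene were called lower and 1 regulator higher, so these lists ranged from 0 to 1 called. The members' median, -0.088, was -0.25 from processed signals and in the series table, and 0.013 with probes required to be well above background in both channels, which drops Klf1. It ranged from -0.16 to 0.069 when an array was left out. The medians of the other globin loci and of the regulators, 0.046 and 0.0056, became -0.11 and -0.11 from processed signals and in the series table, and the regulators' ranged from -0.079 to 0.060 with an array left out. With an array left out the median ranged from -0.16 to -0.022 for iron and haem handling, from -0.055 to 0.060 for haem synthesis and from 0.039 to 0.16 for red-cell enzymes and maturation, where it was 0.058 with median centring.

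The embryonic minus adult-type globin log2 ratio, -0.49, ranged from -0.83 to 0.073 with an array left out and reversed without replicate 3. It was -0.59 from processed signals, -0.013 with saturated probes kept, and -0.44 with the unsaturated Hbb-b1 probe alone, an alternative chosen after seeing the data. Of 87 values of single members under the alternatives 82 moved by less than their spread over arrays. The 5 others were those of Hbb-bh1 (-0.096 from processed signals and in the series table, 0.010 with median centring) and Klf1 (-0.43 from processed signals and in the series table). Leaving out 1 of 3 arrays cannot move a mean by its spread, and the dim-probe filters leave a ratio unchanged. The count of 82 is therefore no measure of stability. Signs did change within it: without replicate 3 Hba-x became 0.058 and Hbb-b1 -0.17, and without replicate 2 Slc4a1 became 0.069. Alas2 stayed between -0.54 and -0.38 under every alternative run, and its place among the members changed, since from processed signals Hba-x (-0.58), Klf1 (-0.43) and Slc4a1 (-0.39) lay below its -0.38. The cause of these shifts was not tested. Saturation limits the adult-type globins, and low signal limits Klf1 and Gata1. Each ratio is a difference between the channels of 1 array, so the comparison is paired by array throughout.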
